A study of Mus musculus with 8 samples.

Results

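The proteasome is the barrel-shaped protease that degrades ubiquitin-tagged proteins, and its subunits are encoded by genes whose mouse symbols start with Psm. Protein-coding genes whose symbol in the GENCODE M21 annotation is Psm followed by a letter from a to g and a digit were taken as members. The deposited table held 50 such genes among 26589 rows, which was every one that the annotation lists, on 16 chromosomes. The rule used names only and no measured value. One gene, Psmc3ip, matched by name alone: it encodes a recombination factor and not a proteasome subunit.

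The core particle is a stack of α rings (Psma genes) around β rings (Psmb genes), and the β rings hold the peptide-cutting sites. The cap is built from an ATPase ring (Psmc genes), which unfolds and threads substrates, and non-ATPase subunits (most Psmd genes), which bind ubiquitin chains and cut them off. In lymphocytes and after interferon the catalytic subunits encoded by Psmb5, Psmb6 and Psmb7 can be replaced by those encoded by Psmb8, Psmb9 and Psmb10, which form the immunoproteasome and change which peptides are made for display on MHC class I. Activators (Psme genes) can take the place of the cap, Psmf1 encodes an inhibitor, and Psmg genes encode chaperones that assemble the core. Antibody-secreting cells make large amounts of secretory protein, and their dependence on the proteasome is the basis of proteasome inhibitor treatment of myeloma.

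Messenger RNA was measured by sequencing in mouse splenic B cells carrying an eGFP reporter of interleukin 10, the Tiger allele. All cells had received 3 µg/ml lipopolysaccharide (LPS), a Toll-like receptor ligand, for 48 h, and were then sorted by the reporter into IL-10+ and IL-10- cells, with 4 libraries in each group. One treatment field of the labels reads untreated, whereas the series' design and the protocols describe the LPS culture. The comparison therefore sets reporter-positive against reporter-negative cells of LPS-treated cultures, and no library of cells without LPS enters it. The labels do not say that the 4 libraries of a group came from separate mice or cultures, so the p-values rest on differences among these libraries alone, and that spread may be technical.

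Values are FPKM, fragments scaled by the length of a gene and by the mapped reads of the library. Most values gave whole reads when that length was taken as all annotated exons of the gene, overlaps counted once. It was 899 bases for Psmb5 and 3381 for Psmb8, for example. Rankings of different genes by FPKM depend on this length, whereas comparisons of 1 gene between libraries do not. The read totals recovered from the FPKM steps were 27380398 to 29968285 per library. Il10 itself, the sorted gene, was 3.17 ± 1.48 FPKM (SD, n = 4) in the IL-10- group and 36.9 ± 5.32 (SD, n = 4) in the IL-10+ group, in the direction of the labels. All 5 B cell markers were present, with a summed level of 1252 to 1682 FPKM in the IL-10- group and 1157 to 1450 in the IL-10+ group, and 2 of them fell. All 5 plasmablast markers rose, from a summed 105.6 to 135.8 FPKM in IL-10- to 435.1 to 484.0 in IL-10+ libraries. Of the summed FPKM, immunoglobulin genes held 3.73 to 4.73% in the IL-10- group and 13.2 to 16.8% in the IL-10+ group. The 5 T cell markers, the 2 NK cell markers in the table, the 5 macrophage and monocyte markers and the 3 erythroid markers were under 1 FPKM in every library, and 1 of 3 neutrophil markers reached 1.21 FPKM. Of 4 dendritic cell markers, 3 were under 1 FPKM and Flt3 reached 14.7 FPKM. The parts of the plasmablast and immunoglobulin differences in the results below were not tested, and in bulk libraries fewer cells of a type and less RNA per cell cannot be told apart.

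The stretches before the start sites of the 4 genes that changed, and of Psmb5, are shown so that the members that moved can be set beside one with an antioxidant response element, the string tied to control of proteasome genes by NRF1. They are RefSeq promoter sequences of the GRCm38.p6 build, printed 5′ to 3′ on the strand of the gene. Capitals mark matches on either strand to 3 strings: CGGAAG, the core of an ETS factor site, CCAAT, the CCAAT box, and TGACNNNGC, the core of the antioxidant response element that NRF1 and NRF2 bind. Psmd14 lies at chr2:61711444-61711693 (plus strand), Psme4 at chr11:30771525-30771728 (plus), Psmb10 at chr8:105938445-105938642 (minus), and Psmb5 at chr14:54618023-54618245 (minus). Psma6 has 2 RefSeq starts, and the stretch before the downstream one, chr12:55398575-55398774 (plus), lies in an intron of the longest GENCODE gene model.
Psmd14: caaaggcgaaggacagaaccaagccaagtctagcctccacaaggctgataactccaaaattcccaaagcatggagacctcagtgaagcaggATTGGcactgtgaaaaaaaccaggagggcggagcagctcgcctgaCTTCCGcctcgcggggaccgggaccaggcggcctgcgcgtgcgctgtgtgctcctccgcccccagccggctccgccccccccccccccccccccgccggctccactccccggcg
Psme4: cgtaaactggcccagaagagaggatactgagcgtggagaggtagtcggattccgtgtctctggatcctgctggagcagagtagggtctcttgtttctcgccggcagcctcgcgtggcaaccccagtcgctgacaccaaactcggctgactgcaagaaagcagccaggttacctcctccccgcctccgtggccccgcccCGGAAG
Psmb10: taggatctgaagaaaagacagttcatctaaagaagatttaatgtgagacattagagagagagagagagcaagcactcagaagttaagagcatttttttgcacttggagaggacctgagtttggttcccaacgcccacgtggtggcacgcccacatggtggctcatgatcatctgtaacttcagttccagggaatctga
Psma6: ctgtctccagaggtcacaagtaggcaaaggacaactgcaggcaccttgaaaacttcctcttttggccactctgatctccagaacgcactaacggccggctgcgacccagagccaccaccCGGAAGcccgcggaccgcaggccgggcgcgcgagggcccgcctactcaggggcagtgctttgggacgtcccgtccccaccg
Psmb5: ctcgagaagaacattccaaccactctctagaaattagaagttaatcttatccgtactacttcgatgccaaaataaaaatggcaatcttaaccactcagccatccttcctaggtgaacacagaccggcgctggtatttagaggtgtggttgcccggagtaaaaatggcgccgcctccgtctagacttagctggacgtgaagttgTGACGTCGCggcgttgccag

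The stretch of Psmd14 holds an ETS core and a CCAAT box, those of Psme4 and Psma6 an ETS core each, and that of Psmb5 an antioxidant response element. None of the 3 strings occurs in the 250 bases before the start of Psmb10. RefSeq promoters matched 42 of the 50 members, and in the 250 bases before the start the ETS core occurred in 20 of them (47.6%), against 13.6% of all 32851 promoters and 32.4% of 7735 tested genes with a promoter. The antioxidant response element core occurred in 5 of 42 (11.9%; Psmb5, Psmb6, Psmc6, Psmd9 and Psmd12) against 10.2% of all promoters and 14.0% of tested genes, and CCAAT in 15 (35.7%) against 33.8% and 41.4%. Members and tested genes were scored per gene, with a match at any start, whereas the share of all promoters is per promoter. Scored per gene over all 27025 genes searched, the shares were 15.3% for the ETS core, 11.5% for the antioxidant response element and 37.5% for CCAAT. The last 2 strings lay below the share of tested genes in the members, and CCAAT also below that of all genes searched. In all, 11 strings were searched on both strands. The other strings are given with the shares of members, promoters and tested genes, in that order. The gamma-activated site, TTCNNNGAA, occurred in 2 members (4.76%, 7.02% and 7.05%). The interferon response element, GAAA, any 2 bases and GAAA, occurred in 3 (7.14%, 2.98% and 3.48%). The looser TGANNNNGC, which holds TGACNNNGC, occurred in 17 (40.5%, 35.2% and 41.5%). A loose NF-kB site, GGG, any 5 bases and CC, occurred in 23 (54.8%, 45.8% and 66.9%). ACGTG occurred in 8 (19.0%, 16.6% and 26.4%). GGAAGTG, which overlaps the ETS core, occurred in 5 (11.9%, 8.55% and 14.6%). No member held GTGACGTCA or TACAATT. A match is a string of letters and no measure of binding.

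Most proteasome genes were expressed at moderate to high levels and differed little between IL-10+ and IL-10- cells. Of the 48 members that passed the filter of at least 1 FPKM in at least 4 libraries, 2 rose (Psmd14 and Psme4), 2 fell (Psmb10 and Psma6) and 44 were not called (limma on log2(FPKM + 1), Benjamini-Hochberg adjusted p under 0.05 over 11329 genes). The share called, 8.33%, compares with 19.7% of all genes tested; 4.17% of the members against 10.6% of all genes were called higher, and 4.17% against 9.18% lower. The median change of the members was -0.04 on the log2 scale, beside -0.06 for all genes tested, and the median size of change was 0.0525 beside 0.163. Under median-of-ratios scaling the members' median was 0.00, so no direction is given for the family as a whole. The 95% intervals of the 44 members not called lay between -0.53 and 0.52 in this fit, whose error includes the spread between replicate numbers described below. The 4 IL-10+ values lay wholly apart from the 4 IL-10- values in 3 members, Psmd14 and Psme4 above and Psmb10 below, a share of 6.25% against 25.2% of all genes tested (12.2% above and 13.0% below).

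**Figure D1:**
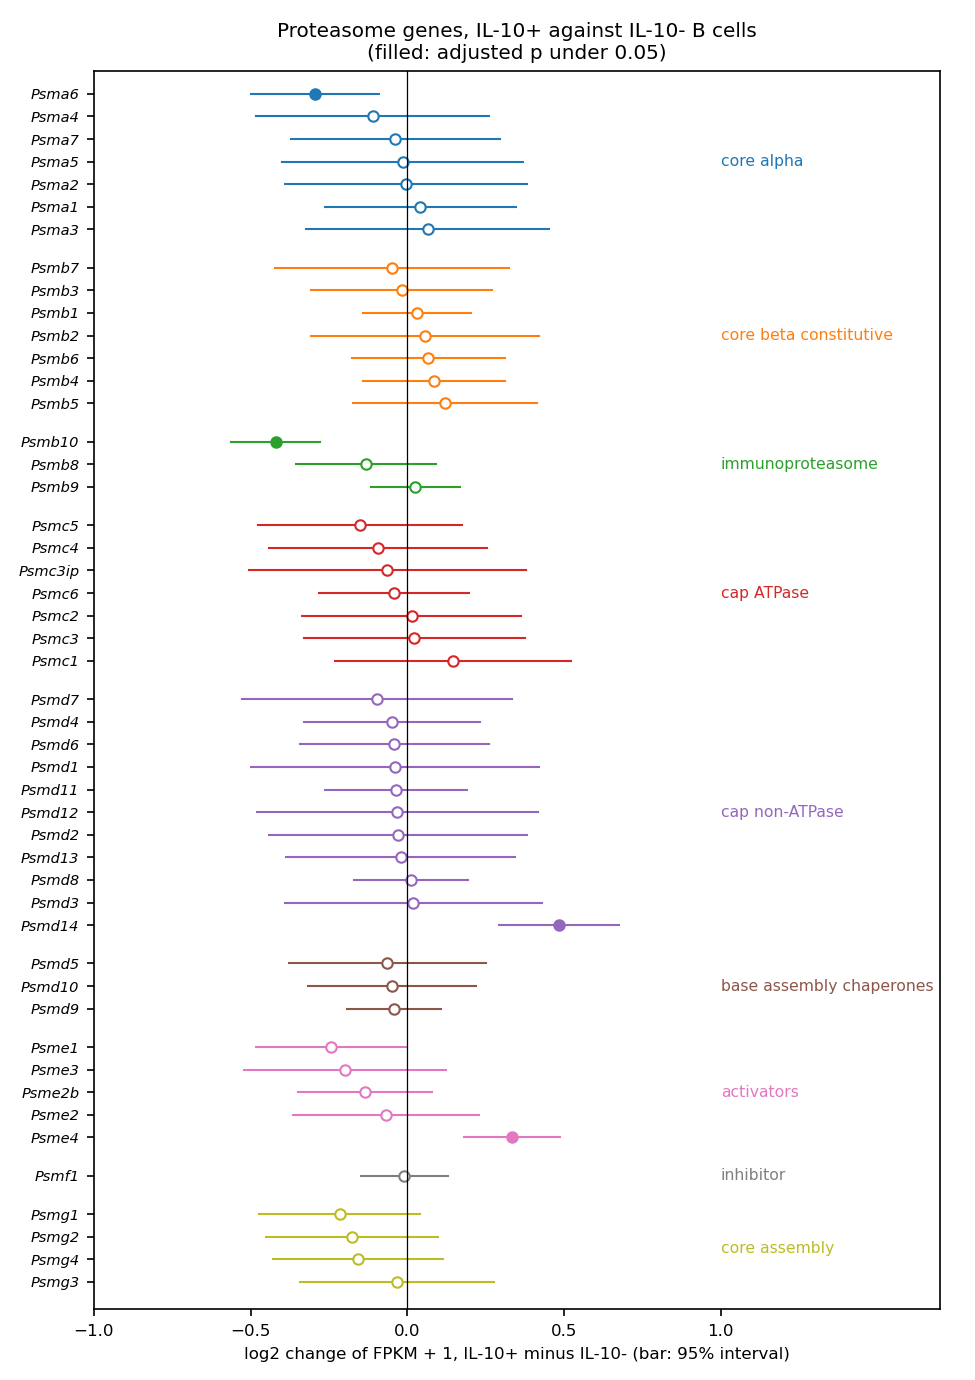
Change of each of the 48 tested proteasome genes, as log2(FPKM + 1) in IL-10+ minus IL-10- libraries with its 95% interval from limma, ordered by size within each structural class. Filled points are the 4 genes with an adjusted p under 0.05: Psmd14 at 0.48, Psme4 at 0.33, Psma6 at -0.30 and Psmb10 at -0.42, and the intervals of the other 44 stay between -0.53 and 0.52.

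Most members varied with the replicate number in the same way in both groups. Replicate 1 was the lowest of its group in both IL-10- and IL-10+ cells for 43 of 48 members (89.6%), against 23.5% of all genes tested. Replicates 1 and 2 both lay below replicates 3 and 4 in each group for 41 members (85.4%, against 21.4% of genes), and above them only for Psmd8, a subunit of the cap's lid (2.08%, against 24.9%). The median ratio of replicates 3 and 4 over replicate 1 was 1.34 for the members and 0.970 for all genes. The 5 members in which replicate 1 was not the lowest in both groups were Psmb9, Psmd8, Psmd14, Psme4 and Psmf1. Summed over the 50 members, the proteasome took a share of the total FPKM of 0.810, 0.962, 1.06 and 1.08% in IL-10- replicates 1 to 4 and 0.726, 0.844, 0.961 and 0.962% in the IL-10+ replicates of the same numbers. The total itself was 326609 to 335280 FPKM in IL-10- and 354338 to 370399 in IL-10+ libraries. A smaller share in IL-10+ cells is therefore not by itself a lower level. The pattern over replicate numbers was noticed in the data and is given as a description.

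**Figure D2:**
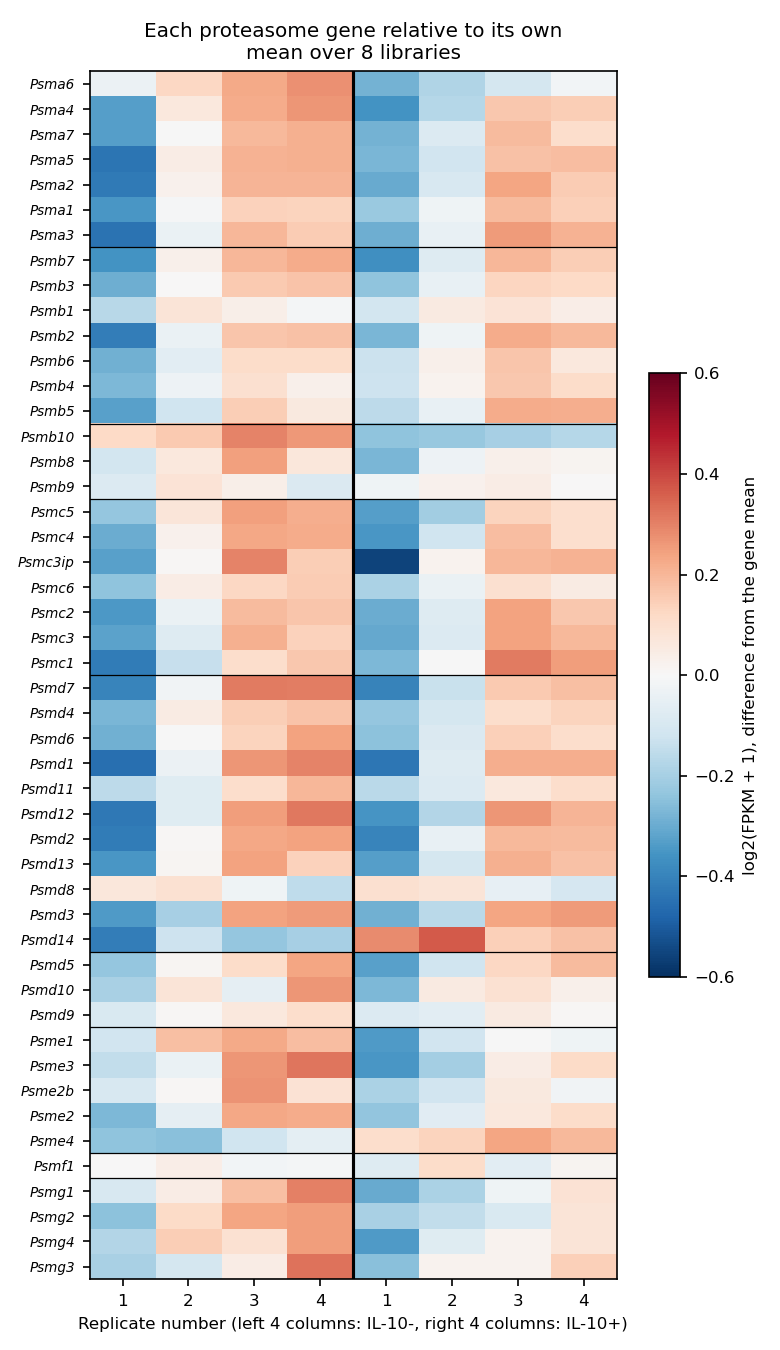
Level of each of the 48 tested proteasome genes in each library as log2(FPKM + 1) minus the gene's mean over the 8 libraries, with IL-10- replicates 1 to 4 on the left, IL-10+ replicates 1 to 4 on the right, and lines between structural classes. The columns of replicate 1 are low in both groups in most rows, whereas Psmd14 and Psme4 are higher and Psmb10 is lower across the IL-10+ columns.

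Because same-numbered libraries moved together, a fit with the replicate number as a block removes that spread. It called 5 members higher (Psmb4, Psmb5, Psmc1, Psmd14 and Psme4) and 10 lower (Psma6, Psmb8, Psmb10, Psmc4, Psmc5, Psme1, Psme2b, Psme3, Psmg1 and Psmg4). That was 31.3% of the members against 53.7% of all genes under the same fit, with 10.4% against 20.4% higher and 20.8% against 33.3% lower. Over the 44 members that the fit without the block did not call, the median SE of the log2 change was 0.134 in that fit and 0.0330 with the block. With the block and median-of-ratios scaling, 15 members were called against a background of 49.6% of genes. When the block was joined to a scaling that leaves out immunoglobulin and mitochondrial genes, 14 were called, against 50.0%. Replicates 3 and 4 alone gave calls for 6 members (23.4% of genes), and replicates 1 and 2 alone for no member (9.76% of genes). In the limma fit of replicates 1 and 2 alone, 4 of 48 members had an unadjusted p under 0.05, against 2911 of 11329 genes.

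The α ring of the core gates the entry of substrates. Of its 7 genes, Psma6, which encodes the α1 subunit, fell, and the other 6 were not called. Psma6 lies on chromosome 12 at 55384222 to 55418454 (plus strand, GRCm38). By FPKM, which depends on the exon length set for each gene, it was the most abundant α gene and the highest of all members in IL-10- cells. It measured 207, 231, 248 and 256 FPKM in IL-10- replicates 1 to 4 and 174, 187, 197 and 209 FPKM in the IL-10+ ones. The IL-10+ value was the lower one for each of the 4 replicate numbers, and the groups overlapped only where the highest IL-10+ library passed the lowest IL-10- library. The means were 236 ± 21.9 and 192 ± 15.0 FPKM (SD, n = 4), a 1.23-fold lower level, with a log2 change of -0.30 (SE 0.0895, adjusted p = 0.0497). That call lies at the threshold: it was lost in 7 of 8 fits that left out 1 library (highest adjusted p 0.121, kept only without IL-10- replicate 1) and under median-of-ratios scaling (0.0947), while with the replicate block the adjusted p was 0.000503. The other α genes ranged from 33.5 (Psma3) to 94.3 FPKM (Psma5) as IL-10- means, and their log2 changes lay between -0.11 (Psma4) and 0.06 (Psma3).

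The 7 constitutive β genes include the catalytic subunits β1, β2 and β5 and their structural neighbours. No constitutive β gene was called in either direction by limma, none had an unadjusted p under 0.05, and limma-voom on recovered reads called none of the 6 it tested. The log2 changes ran from -0.05 (Psmb7) to 0.12 (Psmb5), and as deposited 5 of 7 means were higher in IL-10+ cells. Psmb5, which encodes the chymotrypsin-like β5 subunit, measured 39.5, 45.8, 55.3 and 51.9 FPKM in IL-10- and 44.6, 48.3, 58.4 and 58.2 FPKM in IL-10+ replicates. The groups overlapped, though Psmb5 was higher in IL-10+ cells at each of the 4 numbers (48.2 ± 6.96 against 52.4 ± 7.02 FPKM, SD, n = 4; adjusted p = 0.565, with the replicate block 0.0188). Psmb4, a structural β7 subunit at 177 ± 19.0 and 187 ± 16 FPKM (SD, n = 4), likewise passed only with the block (adjusted p = 0.0464).

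The other catalytic genes overlapped between the groups more closely. Psmb6, encoding the caspase-like β1 subunit, measured 64.7, 75.5, 85.5 and 85.3 FPKM in IL-10- and 72.2, 80.8, 88.9 and 82.8 FPKM in IL-10+ replicates (log2 change 0.07, 95% interval -0.18 to 0.31, adjusted p = 0.711). Psmb7, encoding the trypsin-like β2 subunit, measured 25.4, 33.6, 37.9 and 38.6 FPKM in IL-10- and 25.3, 31.1, 37.9 and 36.5 FPKM in IL-10+ replicates (log2 change -0.05, 95% interval -0.42 to 0.33, adjusted p = 0.871). In both genes the spread over replicate numbers exceeded the difference between the sorted groups.

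Among the 3 immunoproteasome genes, Psmb10 fell and Psmb8 and Psmb9 were not called. Psmb10 encodes the β2i subunit, which replaces β2, and lies on chromosome 8 at 105935735 to 105938444 (minus strand). It measured 38.1, 39.1, 43.2 and 42.0 FPKM in IL-10- replicates and 29.3, 29.7, 30.3 and 30.9 FPKM in IL-10+ replicates. All IL-10+ values lay below all IL-10- values. The means were 40.6 ± 2.40 and 30.1 ± 0.691 FPKM (SD, n = 4), 1.35-fold lower, with a log2 change of -0.42 (SE 0.0621, adjusted p = 0.00179). The call was kept in each of the 8 fits without 1 library (adjusted p 0.00223 to 0.00919) and lost only with replicates 1 and 2 alone (0.0607).

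Psmb8 and Psmb9 lie 9956 bases apart on chromosome 17 in the MHC class II region, with most of Tap1 between them, whereas Psmb10 lies elsewhere. Psmb8, encoding β5i, measured 28.4, 32.1, 36.6 and 32.3 FPKM in IL-10- and 25.2, 30.0, 31.4 and 31.0 FPKM in IL-10+ replicates. It was lower in IL-10+ cells at each of the 4 numbers, and the groups overlapped (log2 change -0.13, 95% interval -0.36 to 0.09, adjusted p = 0.399). With the replicate block the adjusted p was 0.0247, but it was 0.0886 when median-of-ratios scaling was added and 0.0659 when libraries were scaled on all but the immunoglobulin and mitochondrial genes. Psmb9, encoding β1i, measured 38.4, 43.1, 41.7 and 38.3 FPKM in IL-10- and 39.9, 41.5, 42.0 and 40.8 FPKM in IL-10+ replicates, with a log2 change of 0.02 (95% interval -0.12 to 0.17, adjusted p = 0.821). An exon of Psmb9 overlaps Tap1, and one of Psmb8 overlaps Gm20496, on the opposite strand. Whether the counting used strand is not stated in the labels, so reads of such partners may be shared. In all, 15 of the 50 members have an exon that overlaps another gene, Psmb7 (with Nek6, on the opposite strand) and Psmb5 (with Mir686, on the same strand) among them.

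**Figure D3:**
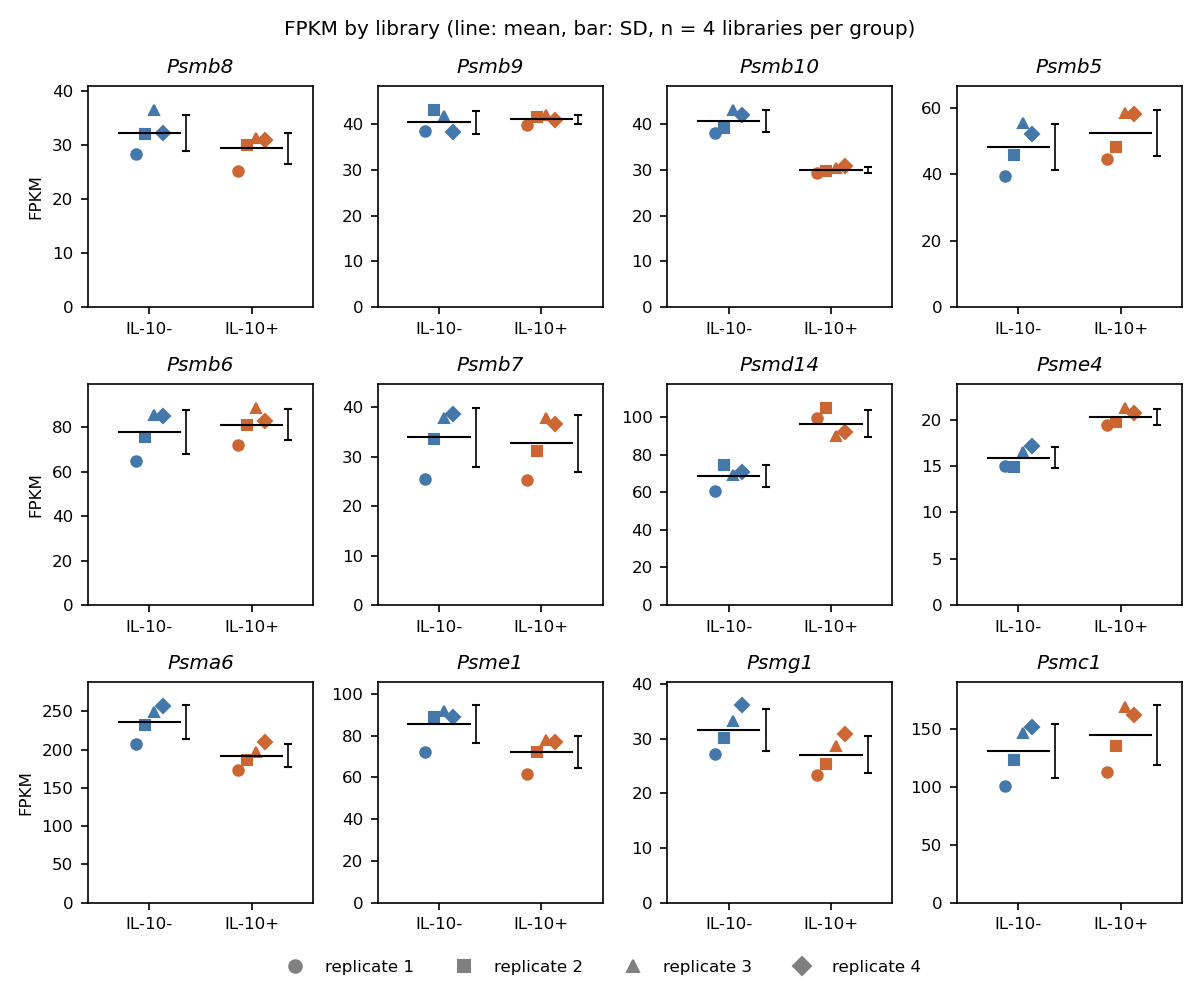
FPKM of 12 proteasome genes in each library, with IL-10- in blue and IL-10+ in orange, replicate numbers by symbol, a line at the mean and a bar of 1 SD. The 4 IL-10+ points of Psmb10 lie below all IL-10- points and those of Psmd14 and Psme4 above them, while in the other genes drawn the groups overlap and replicate 1 is mostly the lowest point.

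The balance of immune over constitutive subunits was compared as a ratio within each library, which does not depend on how libraries are scaled. The level of such a ratio depends on the exon length set for each gene, whereas its log2 difference between groups does not. The 3 ratios of catalytic pairs were tested with an exact two-sided permutation test over libraries, for which 4 against 4 allows no p under 0.0286. After adjustment over the 3, a single ratio at that floor could not by itself fall under 0.05. A ratio that did not pass is therefore not shown to be unchanged. Psmb8 over Psmb5 was 0.675 ± 0.0430 in the IL-10- group and 0.564 ± 0.0410 in the IL-10+ group (SD, n = 4; log2 difference -0.26, exact p = 0.0571, 0.129 after Benjamini-Hochberg adjustment over the 3). Psmb10 over Psmb7 was 1.22 ± 0.186 and 0.940 ± 0.161 (SD, n = 4; log2 difference -0.38, exact p = 0.0857, adjusted 0.129). Both ratios were lower in IL-10+ cells at 4 of 4 replicate numbers, and neither passed the test. Psmb9 over Psmb6 was 0.525 ± 0.0686 and 0.508 ± 0.0342 (SD, n = 4; exact p = 0.714, adjusted 0.714). A sign-flip permutation within replicate numbers, the paired form, cannot go below 0.125 with 4 numbers, and gave 0.125, 0.125 and 0.5 for the ratios of Psmb8, Psmb10 and Psmb9.

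Ratios within the immune set are given as a description, with no test. Psmb10 over Psmb9 was 0.991, 0.906, 1.04 and 1.10 in IL-10- and 0.735, 0.716, 0.721 and 0.757 in IL-10+ replicates, with no overlap. Psmb10 over Psmb8 was 1.26 ± 0.0742 in the IL-10- group and 1.03 ± 0.0910 in the IL-10+ group (SD, n = 4). These 2 ratios and 3 others given below for the lid and the activators were chosen after their values were seen to lie apart, so they support no statement of a difference.

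**Figure D4:**
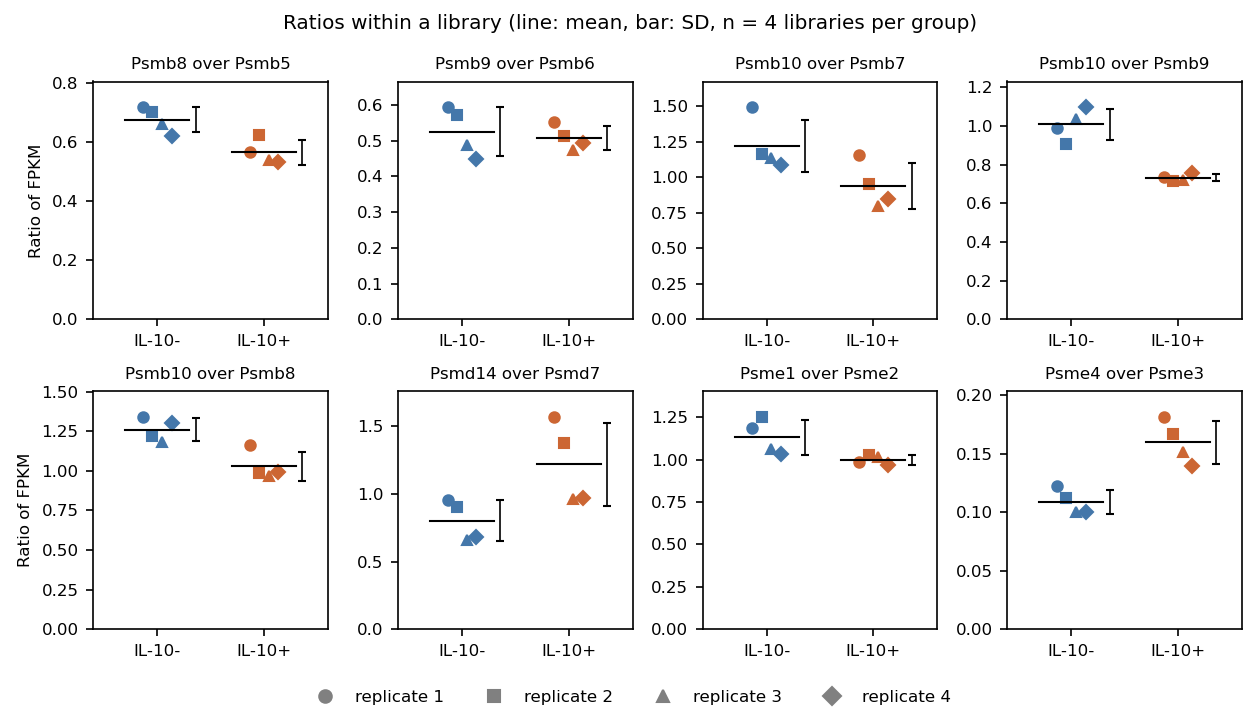
Ratio of the FPKM of 2 proteasome genes within each library, for the 3 immune over constitutive pairs and 5 pairs chosen after values were seen, with IL-10- in blue, IL-10+ in orange, the mean as a line and 1 SD as a bar. Psmb10 over Psmb9, one of the pairs chosen on their values, has means of 1.01 and 0.732 without overlap, and Psmb9 over Psmb6 overlaps with means of 0.525 and 0.508.

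The ATPase ring of the cap is encoded by Psmc1 to Psmc6, and none of the 6 genes was called in either direction or had an unadjusted p under 0.05 (limma; limma-voom on recovered reads also called none of the 6). Their log2 changes lay between -0.15 (Psmc5) and 0.15 (Psmc1), with a median of -0.01. Psmc1, which encodes the Rpt2 subunit, showed the largest higher value among the uncalled members. It measured 101, 124, 147 and 152 FPKM in IL-10- and 113, 136, 169 and 162 FPKM in IL-10+ replicates, higher at each of the 4 numbers with overlapping groups (adjusted p = 0.586, with the block 0.00843). Psmc5, encoding Rpt6, measured 139 ± 20.3 and 125 ± 19.8 FPKM (SD, n = 4) and was lower at each of the 4 numbers (adjusted p = 0.506, with the block 0.0205). These 2 genes of the same ring thus differed in sign at every number, while the level of each spread within a group by more than its difference between groups. Psmc3ip, the gene that matches by name only, measured 12.6 ± 2.41 and 12.1 ± 2.93 FPKM (SD, n = 4; adjusted p = 0.855).

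Of the 11 non-ATPase genes of the cap, Psmd14 rose and the other 10 were not called. Psmd14 encodes Rpn11, the metalloprotease of the lid that removes ubiquitin chains as a substrate enters, and it lies on chromosome 2 at 61711694 to 61800376 (plus strand). It measured 60.7, 74.5, 69.0 and 70.7 FPKM in IL-10- replicates and 99.3, 105, 89.8 and 91.8 FPKM in IL-10+ replicates. Every IL-10+ value lay above every IL-10- value. The means were 68.7 ± 5.82 and 96.5 ± 7.03 FPKM (SD, n = 4), 1.40-fold higher, with a log2 change of 0.48 (SE 0.0841, adjusted p = 0.00413). It stayed called in the 8 fits without 1 library (adjusted p 0.0072 to 0.0158) and missed the threshold with replicates 1 and 2 alone (0.0561).

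The rest of the lid and base did not follow Psmd14. The 10 other non-ATPase genes had log2 changes of -0.10 (Psmd7) to 0.02 (Psmd3), and none had an unadjusted p under 0.05. Psmd7 encodes Rpn8, the partner with which Rpn11 forms a heterodimer, and it measured 63.3, 82.4, 104 and 104 FPKM in IL-10- and 63.2, 76.2, 93.4 and 95 FPKM in IL-10+ replicates. The ratio of Psmd14 over Psmd7 was 0.959, 0.905, 0.663 and 0.682 in IL-10- and 1.57, 1.38, 0.961 and 0.967 in IL-10+ replicates. The ratio differed more between replicates 1 and 2 and replicates 3 and 4 than Psmd14 itself did, and at each number it was higher in IL-10+ cells. Psmd8, encoding Rpn12, went against the replicate pattern of the others, with 93.0, 94.8, 87.1 and 79.8 FPKM in IL-10- and 95, 93.9, 85.8 and 82.7 FPKM in IL-10+ replicates. The 3 genes for chaperones that assemble the base, Psmd5, Psmd9 and Psmd10, were expressed at 5.80 to 18.5 FPKM as IL-10- means, with log2 changes of -0.06 to -0.04 and no call (limma, none at an unadjusted p under 0.05, and limma-voom on recovered reads called none).

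Activators open the core without using ATP, and of their 5 genes 1 rose and 4 were not called. Psme4, which encodes PA200, a nuclear activator linked to histone degradation, was the gene that rose. It lies on chromosome 11 at 30771726 to 30880361 (plus strand) and measured 15.0, 14.9, 16.5 and 17.2 FPKM in IL-10- and 19.4, 19.8, 21.3 and 20.7 FPKM in IL-10+ replicates. No values overlapped, and the means of 15.9 ± 1.10 and 20.3 ± 0.862 FPKM (SD, n = 4) differed 1.28-fold, with a log2 change of 0.33 (SE 0.0670, adjusted p = 0.00856). The adjusted p was 0.0104 to 0.0313 without 1 library and 0.0607 with replicates 1 and 2 alone. Psme4 also had the lowest FPKM of the 5 activator genes in both groups.

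Psme1 and Psme2 encode the α and β subunits of PA28, the interferon-inducible activator, and lie 5911 bases apart on chromosome 14. Psme1 measured 72.2, 88.8, 91.8 and 89.1 FPKM in IL-10- and 61.5, 72.2, 78.0 and 76.7 FPKM in IL-10+ replicates. It was lower in IL-10+ cells at each of the 4 numbers but did not pass the test (85.5 ± 8.98 against 72.1 ± 7.52 FPKM, SD, n = 4; log2 change -0.24, adjusted p = 0.149); the adjusted p was 0.000945 with the block, 0.0264 in replicates 3 and 4 alone and 0.0490 without IL-10- replicate 1. Psme2 measured 61.0, 71.0, 86.5 and 86.2 FPKM in IL-10- and 62.3, 70.1, 76.9 and 79.5 FPKM in IL-10+ replicates (log2 change -0.07, 95% interval -0.36 to 0.23, adjusted p = 0.762). Psme1 over Psme2 was 1.13 ± 0.103 in the IL-10- group and 0.999 ± 0.0287 in the IL-10+ group (SD, n = 4). An exon of Psme1 overlaps Emc9 on the opposite strand.

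Psme3 encodes PA28γ, the nuclear member of that family, and was the most abundant activator gene. It measured 123, 133, 164 and 171 FPKM in IL-10- and 107, 118, 141 and 148 FPKM in IL-10+ replicates, lower at each of the 4 numbers (log2 change -0.20, adjusted p = 0.378, with the block 0.00151 and in replicates 3 and 4 alone 0.0410). Psme4 over Psme3 was 0.109 ± 0.0106 in the IL-10- group and 0.160 ± 0.0183 in the IL-10+ group (SD, n = 4). Psme2b, a near copy of Psme2, measured 92.7, 99.6, 120 and 105 FPKM in IL-10- and 86.6, 91.5, 103 and 97.5 FPKM in IL-10+ replicates (log2 change -0.13, adjusted p = 0.364, with the block 0.0127). Its value is uncertain, because reads of the 2 copies may be shared between them and its exon overlaps 9930111J21Rik1 on the same strand.

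Psmf1 encodes PI31, an inhibitor of the core in the test tube. It measured 7.5, 7.72, 7.38 and 7.40 FPKM in IL-10- and 7.03, 8.13, 7.10 and 7.56 FPKM in IL-10+ replicates. The difference was smaller than the spread between replicates (log2 change -0.01, 95% interval -0.15 to 0.13, adjusted p = 0.939), and replicate 1 was not the lowest in both groups as it was in most members.

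The 4 Psmg genes encode the chaperones that build the α ring, and all 4 means were lower in IL-10+ cells without a call (limma; none at an unadjusted p under 0.05, and limma-voom on recovered reads called none of 3 tested). Psmg1 measured 27.2, 30.1, 33.2 and 36.1 FPKM in IL-10- and 23.5, 25.4, 28.6 and 30.9 FPKM in IL-10+ replicates (log2 change -0.22, adjusted p = 0.226, with the block 0.00108). Psmg2, the partner of Psmg1, measured 35.5, 45.9, 50.0 and 50.6 FPKM in IL-10- and 36.9, 38.1, 39.7 and 44.7 FPKM in IL-10+ replicates (log2 change -0.18, adjusted p = 0.351, and 0.0485 without IL-10- replicate 1). Psmg1 was lower at each of the 4 numbers and Psmg2 at 3 of them. Psmg4 measured 31.8, 40.0, 38.4 and 43.0 FPKM in IL-10- and 28.3, 34.2, 36.5 and 38.0 FPKM in IL-10+ replicates (log2 change -0.16, adjusted p = 0.407, with the block 0.0101). Psmg3, the partner of Psmg4, was the lowest of the tested members, with 1.04, 1.16, 1.40 and 1.91 FPKM in IL-10- and 0.959, 1.36, 1.36 and 1.57 FPKM in IL-10+ replicates (log2 change -0.03, adjusted p = 0.894). It rested on 76 to 166 recovered reads per library, and one of its exons overlaps Gm26938 on the same strand.

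The remaining 2 members were not tested because they did not reach 1 FPKM. Psma8 encodes an α subunit used in testis and had at most 4 recovered reads in any library. Psmb11 encodes the β subunit of thymic epithelium and had at most 3.

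Genes that work with the proteasome were read by role: the segregase, regulators of constitutive proteasome genes, peptide transport and loading, ubiquitin and its activation, and associated subunits. Paaf1 was not analysed here. The whole list held 42 tested genes, some not reported here, and 5 of them rose, beside 10.6% of all genes tested that were called higher. Of the 5 that rose, 3 belonged to the segregase group, the p97 machinery that pulls ubiquitin-tagged proteins out of membranes and complexes and hands them to the proteasome.

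In the segregase group 3 of 6 genes rose. With the replicate block 5 were called higher and none lower, beside 20.4% of all genes called higher and 33.3% lower in that fit. Ngly1, encoding the cytosolic enzyme that strips N-glycans from proteins retracted from the endoplasmic reticulum, measured 3.80, 4.34, 3.21 and 2.82 FPKM in IL-10- and 6.06, 6.84, 5.06 and 4.76 FPKM in IL-10+ replicates (log2 change 0.56, adjusted p = 0.0189; lost in 2 of 8 fits without 1 library, IL-10- replicate 3 or IL-10+ replicate 2, up to 0.0525). Ufd1, a p97 cofactor, measured 14.2, 15.3, 14.5 and 14.5 FPKM in IL-10- and 17.5, 17.4, 18.9 and 18.1 FPKM in IL-10+ replicates (log2 change 0.28, adjusted p = 0.00873, kept in all 8). Faf2, which recruits p97 to the endoplasmic reticulum, rose from 11.7 ± 0.738 to 13.9 ± 0.530 FPKM (SD, n = 4; adjusted p = 0.0369), a call lost in 7 of 8 such fits (kept only without IL-10- replicate 1; up to 0.108). The groups did not overlap in any of these 3 genes. Vcp, encoding p97 itself, was not called: it measured 60.5, 77.4, 102 and 103 FPKM in IL-10- and 77.6, 94.1, 126 and 121 FPKM in IL-10+ replicates (adjusted p = 0.385, with the block 0.000843). Vcp thus had the low replicate 1 of the core subunits together with a higher value in IL-10+ cells at each number.

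Among 4 factors that control constitutive proteasome genes, Mafg rose and the others were not called. With the replicate block Nfe2l2 (log2 change -0.17, adjusted p = 0.0463) and Mafk (-0.22, 0.0288) were called lower, and neither was when median-of-ratios scaling was added (0.114 and 0.0647). Mafg encodes a small MAF partner of NRF1 and NRF2 and measured 9.77 ± 1.05 and 12.6 ± 0.859 FPKM (SD, n = 4; log2 change 0.34, adjusted p = 0.0223, lost in 4 of 8 fits without 1 library, namely IL-10- replicate 2 or 3 or IL-10+ replicate 3 or 4, up to 0.0618). Nfe2l1 encodes NRF1, the factor that raises proteasome genes when proteasome activity is short. It measured 81.5, 79.1, 38.8 and 40.0 FPKM in IL-10- and 78.4, 81.6, 45.8 and 48.7 FPKM in IL-10+ replicates (adjusted p = 0.819, and 0.0324 in replicates 3 and 4 alone). Nfe2l1 thus differed more between replicates 1 and 2 and replicates 3 and 4 than between the sorted groups. Its replicates 1 and 2 were high, where most subunit genes were low. Of all genes tested, 24.9% had replicates 1 and 2 above replicates 3 and 4 in both groups. Nfe2l1 was picked out after its values were seen.

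Among the regulators of immunoproteasome genes, neither of the following was called by limma or by limma-voom on recovered reads, although each had an unadjusted p under 0.05: Irf9 (log2 change -0.25, adjusted p = 0.126, with the block 0.00301) and Nlrc5 (log2 change 0.21, adjusted p = 0.0981, with the block 0.00182). Of 7 genes for peptide transport and loading, B2m, the light chain of MHC class I, rose from 1349 ± 74.6 to 1595 ± 91.7 FPKM (SD, n = 4; log2 change 0.24, adjusted p = 0.0375, lost in 6 of 8 fits without 1 library, kept only without IL-10- replicate 2 or IL-10+ replicate 4, up to 0.110). Tap1, the peptide pump encoded beside Psmb9, measured 79.8 ± 14.8 and 86.6 ± 11.1 FPKM (SD, n = 4; adjusted p = 0.593, with the block 0.0429).

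Of the 6 genes for ubiquitin and its activation, Ubb was the most abundant at 525 ± 63.3 and 609 ± 64.8 FPKM (SD, n = 4; adjusted p = 0.211, with the block 0.00321), and limma called none of the 6, with none at an unadjusted p under 0.05 and none called by limma-voom on recovered reads. Of 9 associated subunits and assembly factors limma called none and limma-voom none of the 6 it tested, with 2 at an unadjusted p under 0.05, Ecpas (log2 change 0.17, adjusted p = 0.0731; with the block 0.00445, and 0.0388 under median-of-ratios scaling) and Zfand5 (log2 change 0.18, adjusted p = 0.110, with the block 0.00523). With the block that role held 3 genes called higher, Txnl1 (log2 change 0.20, adjusted p = 0.00816) besides these 2, and 2 called lower, Uchl5 (-0.24, 0.00333) and Usp14 (-0.17, 0.00539), which encode deubiquitinases of the cap. Over all genes the fit with the block called 20.4% higher and 33.3% lower.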

How the data were processed

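The authors deposited 1 table of FPKM values per gene and library, and the submitters' processing notes name HISAT2 2.1.0, HTSeq 0.6.0 and the build mm10. The annotation, the use of strand and any filter were not given in the sources used here. Gene names and positions came from GENCODE M21, which holds 26517 of the 26589 identifiers; promoter sequences came from RefSeq.

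FPKM steps gave whole reads for 93.5 to 93.6% of values (within 0.05 of a whole number), with 27380398 to 29968285 reads per library. The main test was limma 3.58.1 in R 4.3.3, with a variance trend, on log2(FPKM + 1) of the genes that reached 1 FPKM in 4 or more of the 8 libraries. It compared 4 IL-10+ with 4 IL-10- libraries, with Benjamini-Hochberg adjustment over all 11329 genes and a threshold of 0.05, and was tested on simulated data. The added 1 shrinks the log2 changes of genes near the filter. Positions are on GRCm38. Intervals are 95% intervals of the fit.

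Same-numbered libraries of the 2 groups deviated together (correlation across 11329 genes 0.712, 0.583, 0.621 and 0.700 for numbers 1 to 4, highest between other numbers 0.435). The labels do not state this pairing, which rests on the values, so the fit with the replicate number as a block is given where it changes a call. The 3 immune over constitutive ratios within a library were tested by exact permutation. The alternatives changed the pseudocount, filter, scaling, libraries, block and test.

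Values for every library are given for the catalytic, immune, activator, inhibitor and assembly genes, the called members, and the 3 largest changes in a direction with fewer than 3 calls. Of the genes that work with the proteasome, called genes are named in each role, or the most abundant. Some genes of that list are not reported here. Psmd7, Psmd8, Psmc5 and Psmb4 and some uncalled pathway genes were picked with their values in view. The members, lists and motifs were chosen with earlier results of these data known.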

Additional observations from a re-analysis of the deposited data

Results flagged for a closer look

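Psme1, the gene of the α subunit of the PA28 activator, had 1 library far from the others of its group: IL-10- replicate 1 measured 72.2 FPKM, whereas the other 3 IL-10- libraries measured 88.8 to 91.8 FPKM. The gap was 0.848 of the group's range, above Dixon's critical value for 4 samples. It was the 1 such case among 96 groups of members examined, and chance gives about 1 in 20, which would be 4.8 of 96. Replicate 1 was also the lowest IL-10+ library for Psme1 (61.5 FPKM), and it was the lowest in both groups in 43 of 48 members. Without that library the adjusted p of Psme1 was 0.0490, against 0.149 with it (limma).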

How the results depend on the processing

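With all 8 libraries and no replicate block, 2 members rose under every alternative fit run. The count that fell was 2, and 1 with a pseudocount of 5, with no filter on low values, with median-of-ratios scaling and with a scaling that leaves out immunoglobulin and mitochondrial genes; Psma6 was the call lost in these 4 fits. Without 1 library in turn, 2 rose each time and 1 to 4 fell (4 without IL-10- replicate 1, which added Psme1 and Psmg2 to Psma6 and Psmb10). Those 4 were 8.33% of the members, against 7.83% of all genes called lower in that fit. Replicates 1 and 2 alone gave 0 and 0, and replicates 3 and 4 alone gave 2 rises and 4 falls. With the replicate block the counts were 5 higher and 10 lower, with the block and median-of-ratios scaling 7 and 8, and with the block and the scaling that leaves out immunoglobulin and mitochondrial genes 6 and 8. Limma-voom on recovered reads, added after seeing the data, gave 2 and 2 over 43 members, and with the replicate block 5 and 11. In these 2 fits 9.30% and 37.2% of the members were called in either direction, against 20.1% and 56.2% of all genes. The immune to constitutive ratio of Psmb9 and Psmb6 had a log2 difference of -0.04, and from -0.115 to 0.0200 without 1 library in turn; it turned positive without IL-10- replicate 1 (0.0200) and without IL-10- replicate 2 (0.00117). The cause of these shifts was not tested. The 2 planned edgeR fits were not run, because the deposited unit is FPKM. The intervals printed are those of the fit without the block and are wider than the block would give: the median SE of the 44 uncalled members was 0.134 without and 0.0330 with it.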
